A study of Homo sapiens with 4 samples.

Results

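Chemokine and interleukin genes were examined in HuCCT1, an established human line from a cholangiocarcinoma, a cancer of the bile ducts. They were taken by name: symbols made of CCL or CXCL and a number, or of IL, a number and at most 1 letter, among array rows annotated with a single gene. The rule gave 78 of 18377 genes. Of these, 34 encode chemokines and 38 interleukins, and 6 are receptor genes that the pattern takes in (IL4R, IL6R, IL7R, IL9R, IL21R and IL23R). The arrays were labelled GEM_VPA (both agents together), VPA, GEM, and untreated, with 1 Affymetrix Human Gene 1.0 ST array each. All 4 groups are the same cultured line and hold tumour cells without the leukocytes that answer these signals. VPA is read here with its usual meaning, the histone deacetylase inhibitor valproic acid, and GEM as the nucleoside analogue gemcitabine. The sources used here give no dose, exposure time or culture batch.

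Chemokines are small secreted proteins that draw leukocytes along a gradient through G protein-coupled receptors. Interleukins signal between leukocytes, epithelium and stroma, mostly through receptor chains coupled to JAK kinases and STAT factors or, for the IL-1 and IL-17 families, through adaptors that reach NF-kB. Bile duct epithelium is itself a source: inflamed or infected cholangiocytes release neutrophil-attracting chemokines such as CXCL8, and IL-6 is known as a growth signal for cholangiocytes and bile duct cancers. CXCL8, CXCL1 and their relatives share the amino acid motif glutamate-leucine-arginine (ELR) and attract neutrophils through CXCR1 and CXCR2.

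The promoters of the ELR chemokines taken by the naming rule are shown for 2 reasons. All 6 of these genes lie as neighbours on chromosome 4. They also carry the same NF-kB-type motif close to the start of transcription. The motif searched was GGANTTTCC on either strand. The sequences are 60-base stretches from RefSeq (GRCh38.p14), 5′ to 3′ in the direction of each gene, with the motif in capitals.
CXCL1: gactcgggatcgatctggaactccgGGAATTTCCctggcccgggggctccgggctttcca
CXCL2: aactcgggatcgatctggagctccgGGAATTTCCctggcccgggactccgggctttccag
CXCL3: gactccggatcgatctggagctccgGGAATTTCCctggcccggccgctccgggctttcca
CXCL5: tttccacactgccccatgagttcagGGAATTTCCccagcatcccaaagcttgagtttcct
CXCL6: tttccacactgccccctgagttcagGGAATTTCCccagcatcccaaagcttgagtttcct
CXCL8: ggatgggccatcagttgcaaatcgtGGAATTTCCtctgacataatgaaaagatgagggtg

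These stretches lie at chr4:73869290-73869349 (plus strand, CXCL1), chr4:74099238-74099297 (minus, CXCL2), chr4:74038733-74038792 (minus, CXCL3), chr4:73998733-73998792 (minus, CXCL5), chr4:73836564-73836623 (plus, CXCL6) and chr4:73740453-73740512 (plus, CXCL8). Counted from the start of transcription, with bases before it negative, the motif's last base is at -69 in CXCL2, -70 in CXCL1 and CXCL3, -81 in CXCL6, -82 in CXCL5 and -83 in CXCL8. The flanks of CXCL1, CXCL2 and CXCL3 resemble each other, and so do those of CXCL5 and CXCL6. The motif was found in the 300-base promoter window of all 6 of these ELR genes and of 2 of 3 CXCR3 ligands (CXCL10 and CXCL11). It was found in 2.01% of the 27305 RefSeq genes with a window. IL6, IL13 and IL32 held it as well.

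The next 2 promoters are shown because CCL26 and CXCL8 had the largest log2 ratios over untreated among the members at level, CCL26 with GEM and CXCL8 with VPA. Each gives the 250 bases before the RefSeq start (GRCh38.p14), at chr7:75789747-75789996 on the minus strand for CCL26 and at chr4:73740319-73740568 on the plus strand for CXCL8. Capitals mark the NF-kB-type motif and an AP-1-type motif, TGANTCA, searched on both strands (it can match both at 1 place).
CCL26: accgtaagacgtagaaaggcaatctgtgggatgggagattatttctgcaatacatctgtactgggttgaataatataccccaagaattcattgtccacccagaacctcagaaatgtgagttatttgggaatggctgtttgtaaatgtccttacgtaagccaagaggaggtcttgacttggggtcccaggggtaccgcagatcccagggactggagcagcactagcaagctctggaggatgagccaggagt
CXCL8: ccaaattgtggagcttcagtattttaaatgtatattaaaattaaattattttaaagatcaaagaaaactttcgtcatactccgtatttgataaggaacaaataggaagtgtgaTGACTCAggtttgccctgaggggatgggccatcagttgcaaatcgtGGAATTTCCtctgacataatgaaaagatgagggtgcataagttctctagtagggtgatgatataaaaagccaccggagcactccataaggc

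CXCL8 carries both motifs, the AP-1-type one at positions -137 to -131. In CCL26 these letters are absent from the window. The AP-1-type motif was present in 7 of the 11 members at level that have a RefSeq window (CXCL8, IL11, IL17B, IL17D, IL23A, IL6R and IL9R), in 8 of 47 members below level and in 9.37% of all genes with a window. The NF-kB-type motif was present in 2 of 11 members at level (CXCL1 and CXCL8) and in 9 of 47 below level, which are similar shares. An interferon-response-type motif, GAAANNGAA, was present in 1 of 11 members at level (IL17B), in 13 of 47 below level and in 9.86% of all genes. These matches describe letters in a window and are not shown to be bound.

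Values are log2 intensities, so a difference of 1 is a 2-fold difference. The arrays held 28869 rows each and had medians of 7.87 to 7.92. A member was said to be at level when it reached the median of all rows of the same array on at least 1 of the 4 arrays. By this rule 17 members (21.8%) were at level, against 64.3% of all genes, and 10 of the 17 were at level on all 4 arrays. The other 61 were below it throughout, and 27 of these lay under the 25th percentile on all 4 arrays, where low values are compressed. The rows nearest the limit were IL9R, which exceeded the median of the untreated array by 0.03, and IL32, which missed that of the GEM array by 0.08. An array median is no detection limit, and intensities of different genes are not comparable because their probes differ. With 1 array per group no difference has an error or a p-value, and the number of arrays limits the precision.

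The arrays fell into 2 close pairs. The correlation over all rows was 0.996 between GEM_VPA and untreated and between VPA and GEM, and 0.984 to 0.987 for the other pairs. The robust SD of log2 differences over genes was 0.147 for the closest pair. Whether the labels are as intended cannot be settled from these values, and every signed ratio and count of directions below follows the labels as given. Of 10 listed bile duct epithelial markers 9 were measured, and all 9 reached an array median on at least 1 array. The keratins KRT8, KRT18 and KRT19 and the adhesion protein EPCAM lay between 12.63 and 14.13, while SPP1 (osteopontin) was below the median on 2 arrays and MUC1, a mucin, on 1. KRT7, a biliary keratin, had 8.93 with GEM_VPA, 11.50 with VPA, 11.14 with GEM and 9.53 untreated. SPP1 had 9.13 with GEM_VPA, 8.91 with VPA, 7.28 with GEM and 7.65 untreated. KRT7 was thus 2-fold or more higher with each agent alone than untreated and lower with GEM_VPA than with either agent, and SPP1 was higher with VPA and with GEM_VPA than untreated and with GEM_VPA than with GEM. The median log2 ratio over the 9 markers relative to untreated was 0.51 (VPA) and 0.55 (GEM), and that of GEM_VPA over GEM was -0.52, the same signs as the members' medians given below and larger in size, and the part of this in the members' values was not tested. Of 12 measured leukocyte markers, PTPRC (CD45) was between 5.21 and 5.34 and CD3E between 6.43 and 6.80, while CD68, LYZ and NKG7 reached the array median on at least 1 array. The summed log2 level of these markers was 82.7 on the GEM_VPA array, 86.7 on the VPA array, 86.9 on the GEM array and 84.5 on the untreated array. CD68, a lysosomal protein, was 0.94 higher with VPA and 0.93 higher with GEM than untreated, and CD68 and LYZ (lysozyme) were 2-fold lower with GEM_VPA than with GEM (-1.28 and -1.72). This order matches that of several members below, and its part in them was not tested. Less RNA per cell and fewer expressing cells cannot be told apart in these bulk samples.

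**Figure D1:**
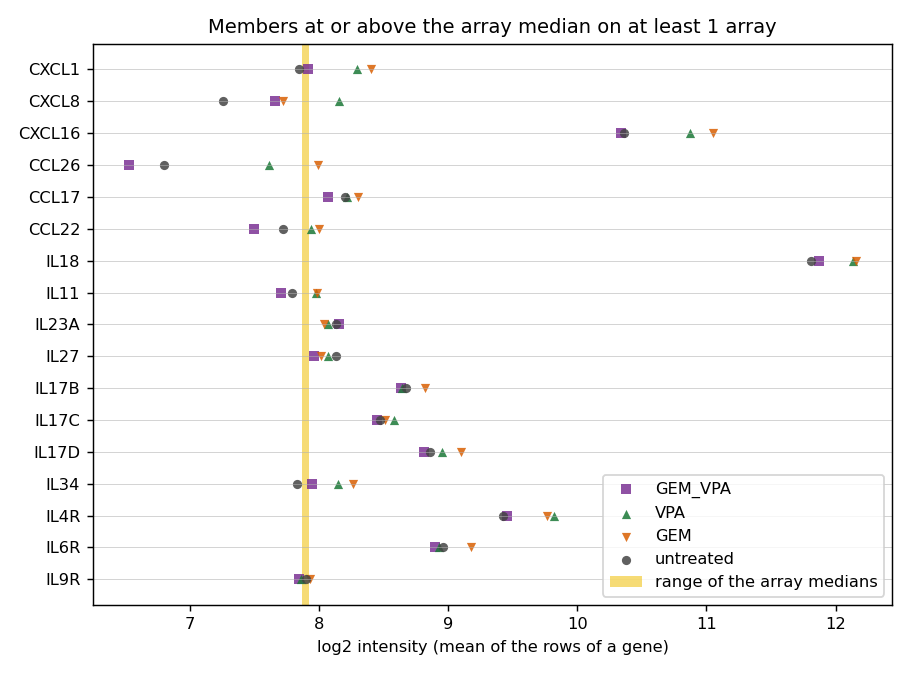
Log2 intensity (x axis) of the 17 members at level, by gene (rows, ordered by role) and array (symbols); the yellow band spans the 4 array medians, 7.87 to 7.92. For CXCL16, IL18, CXCL1, CCL26 and IL4R the VPA and GEM symbols lie right of the GEM_VPA and untreated symbols, while IL23A, IL27 and IL9R show nearly overlapping symbols.

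Among the ELR chemokines taken by the naming rule, CXCL1 and CXCL8 were at level. CXCL1, a neutrophil attractant, had a log2 intensity of 7.92 on the GEM_VPA array, 8.30 with VPA, 8.40 with GEM and 7.85 untreated. Both single-agent arrays were above the other two. The log2 ratio over untreated was 0.45 for VPA and 0.55 for GEM, and 0.07 for GEM_VPA. CXCL8 (interleukin 8) had 7.66 with GEM_VPA, 8.15 with VPA, 7.73 with GEM and 7.26 untreated, so the VPA array stood alone above its median. CXCL8 was 1.86-fold higher with VPA than untreated, and 2.62% of genes at level in that comparison had a larger log2 ratio. With GEM it was 1.38-fold higher and with GEM_VPA 1.32-fold higher than untreated.

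The other 4 ELR genes were below level on every array. CXCL5 ranged from 7.16 to 7.33 and CXCL6 from 6.81 to 7.14. CXCL3 had 6.62 with GEM_VPA, 6.82 with VPA, 6.79 with GEM and 6.49 untreated, the same order of single-agent over other arrays as CXCL1. CXCL2 went the other way, with 6.75 with GEM_VPA, 6.61 with VPA, 6.73 with GEM and 6.90 untreated. Over the 6 ELR genes the median log2 ratio to untreated was 0.33 (VPA) and 0.25 (GEM), with 5 of 6 above 0 in each. CXCL1, CXCL2 and CXCL3 are near copies of each other, so probes may be shared and their single values are uncertain.

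CXCL16, a chemokine made as a membrane protein and shed by ADAM10, recruits cells bearing CXCR6. It was at level on all 4 arrays, with 10.34 with GEM_VPA, 10.87 with VPA, 11.05 with GEM and 10.36 untreated. Its log2 ratio over untreated was 0.51 for VPA and 0.69 for GEM (1.61-fold). The log2 ratio of GEM_VPA was -0.71 over GEM, -0.54 over VPA and -0.02 over untreated. ADAM10 itself was between 12.17 and 12.37 on the 4 arrays. The CXCR3 ligands CXCL9, CXCL10 and CXCL11, chemokines induced by interferon that attract T cells, stayed between 5.30 and 5.85, below the 25th percentile of every array.

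CCL26 was the member with the largest differences. CCL26, eotaxin-3, attracts eosinophils and is known to be induced in epithelial cells by IL-4 and IL-13 through STAT6. It had 6.53 with GEM_VPA, 7.61 with VPA, 7.99 with GEM and 6.80 untreated. The GEM array stood above its array median and the other 3 below theirs, and both single-agent arrays were above the others. CCL26 was 2.28-fold higher with GEM than untreated (log2 ratio 1.19), and 0.811% of genes at level in that comparison had a larger ratio. With VPA it was 0.81 higher than untreated. The log2 ratio of GEM_VPA was -1.46 over GEM (2.75-fold lower), -1.08 over VPA and -0.27 over untreated. On the VPA and GEM_VPA arrays CCL26 was under the median, so the ratio of GEM_VPA over VPA is not counted among the 2-fold differences below.

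Its neighbour on chromosome 7, CCL24 (eotaxin-2), was below level with 6.84 with GEM_VPA, 7.19 with VPA, 7.37 with GEM and 7.14 untreated. CCL11, eotaxin-1, lies on chromosome 17. It was below level too, with 7.20 with GEM_VPA, 7.45 with VPA, 7.63 with GEM and 7.38 untreated. All 3 eotaxins thus had the same order of arrays, highest with GEM and lowest with GEM_VPA. The order was not particular to them, since CCL17, CCL22, IL11 and STAT6 had it too. IL4R, the receptor chain shared by IL-4 and IL-13, was at level on all arrays, with 9.45 with GEM_VPA, 9.82 with VPA, 9.77 with GEM and 9.43 untreated. Its log2 ratio over untreated was 0.39 for VPA and 0.34 for GEM. IL4 (5.73 to 5.94) and IL13 (6.95 to 7.18) were below level, and IL13RA1, the partner chain, lay between 10.70 and 10.87. STAT6 was 9.59 with GEM_VPA, 10.28 with VPA, 10.72 with GEM and 9.93 untreated, and differed 2-fold in GEM_VPA over GEM (-1.13).

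CCL17 and CCL22, neighbours on chromosome 16, are the ligands of CCR4 on type 2 helper and regulatory T cells. CCL22 had 7.50 with GEM_VPA, 7.94 with VPA, 8.00 with GEM and 7.72 untreated. The GEM_VPA array was lowest, with a log2 ratio of -0.50 over GEM and -0.44 over VPA. CCL17 varied less, with 8.07 with GEM_VPA, 8.22 with VPA, 8.30 with GEM and 8.20 untreated. The remaining 15 CC chemokines were all below level, between 5.43 and 7.65. Among them CCL28, a mucosal epithelial chemokine, had one of the 3 widest ranges of the members below level, with 6.18 with GEM_VPA, 6.74 with VPA, 6.33 with GEM and 6.08 untreated. CCL3 and CCL4 have near-identical gene copies, which leaves their single-gene values uncertain.

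In the IL-1 family, IL18 was the only member at level. IL-18 is stored as a precursor in epithelial cells and is released in active form after caspase cleavage. IL18 had 11.87 with GEM_VPA, 12.13 with VPA, 12.16 with GEM and 11.81 untreated. The single-agent arrays were above the others by small amounts, 0.33 for VPA and 0.35 for GEM over untreated. CASP1, the caspase best known for cleaving the precursor, was between 4.93 and 5.07 on all arrays, below the 25th percentile. CASP4, an inflammatory caspase, was 7.94 with GEM_VPA, 8.96 with VPA, 9.12 with GEM and 8.55 untreated, and was at least 2-fold lower with GEM_VPA than with either agent (-1.18 against GEM, -1.02 against VPA).

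IL1A, an alarmin, had the widest range of the members below level, with 6.83 with GEM_VPA, 7.48 with VPA, 7.05 with GEM and 6.70 untreated. IL1B, IL33, IL37 and the IL36 genes had no array at level. The IL-1 receptor antagonist IL1RN, which blocks IL-1 alpha and beta, differed more than the ligands. IL1RN had 7.02 with GEM_VPA, 8.32 with VPA, 7.89 with GEM and 6.95 untreated. Relative to untreated it was 1.37 higher with VPA and 0.94 higher with GEM on the log2 scale, and the log2 ratio of GEM_VPA over VPA was -1.30. IL1R1, the signalling receptor, ran the opposite way, with 9.03 with GEM_VPA, 8.20 with VPA, 7.72 with GEM and 8.48 untreated. IL1R1 was 1.31 higher with GEM_VPA than with GEM.

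In the families of IL-6 and IL-12, IL11, IL23A and IL27 were at level. IL11, which like IL-6 signals through the gp130 chain, had 7.71 with GEM_VPA, 7.98 with VPA, 7.99 with GEM and 7.79 untreated. IL23A, the p19 subunit of IL-23, lay between 8.04 and 8.15, and IL27, the p28 subunit of IL-27, between 7.96 and 8.13. IL6 itself was below the 25th percentile, between 6.03 and 6.18 on the 4 arrays, while IL6R was at level with 8.90 with GEM_VPA, 8.93 with VPA, 9.18 with GEM and 8.96 untreated. The log2 ratio of IL6 over untreated was -0.15 for both GEM_VPA and VPA.

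EBI3, the shared partner subunit of IL-27 and IL-35, was outside the naming rule and differed more than IL27. EBI3 had 7.99 with GEM_VPA, 9.69 with VPA, 9.31 with GEM and 8.14 untreated, with a log2 ratio over untreated of 1.55 for VPA and 1.17 for GEM. STAT3, the main STAT of gp130 signalling, had 11.53 with GEM_VPA, 12.38 with VPA, 12.32 with GEM and 11.34 untreated (1.04 for VPA over untreated). LIFR, the LIF receptor chain, had 9.95 with GEM_VPA, 9.07 with VPA, 8.43 with GEM and 9.12 untreated and was 1.52 higher with GEM_VPA than with GEM. IL6ST, which encodes gp130, was 10.84 with GEM_VPA, 10.51 with VPA, 10.00 with GEM and 10.47 untreated, and its ligand gene LIF lay between 9.83 and 10.20.

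Of the IL-17 family, IL17B, IL17C and IL17D were at level on all 4 arrays and differed little. IL17C, an epithelial cytokine, ranged from 8.45 to 8.58, IL17B from 8.63 to 8.82 and IL17D from 8.81 to 9.10. The receptor chain of IL-17C, IL17RE, had 8.14 with GEM_VPA, 8.86 with VPA, 8.75 with GEM and 8.02 untreated. IL34, a second ligand of the CSF1 receptor of macrophages, had 7.95 with GEM_VPA, 8.15 with VPA, 8.26 with GEM and 7.83 untreated, a log2 ratio of 0.32 for VPA and 0.43 for GEM. The 8 lymphocyte growth and type 2 interleukins, between 5.01 and 7.18, and the 6 genes of the IL-10 family, between 4.90 and 6.49, had no member at level. IL9R was measured by 2 rows that differed by less than 0.01 on each array and lay between 7.85 and 7.93.

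**Figure D2:**
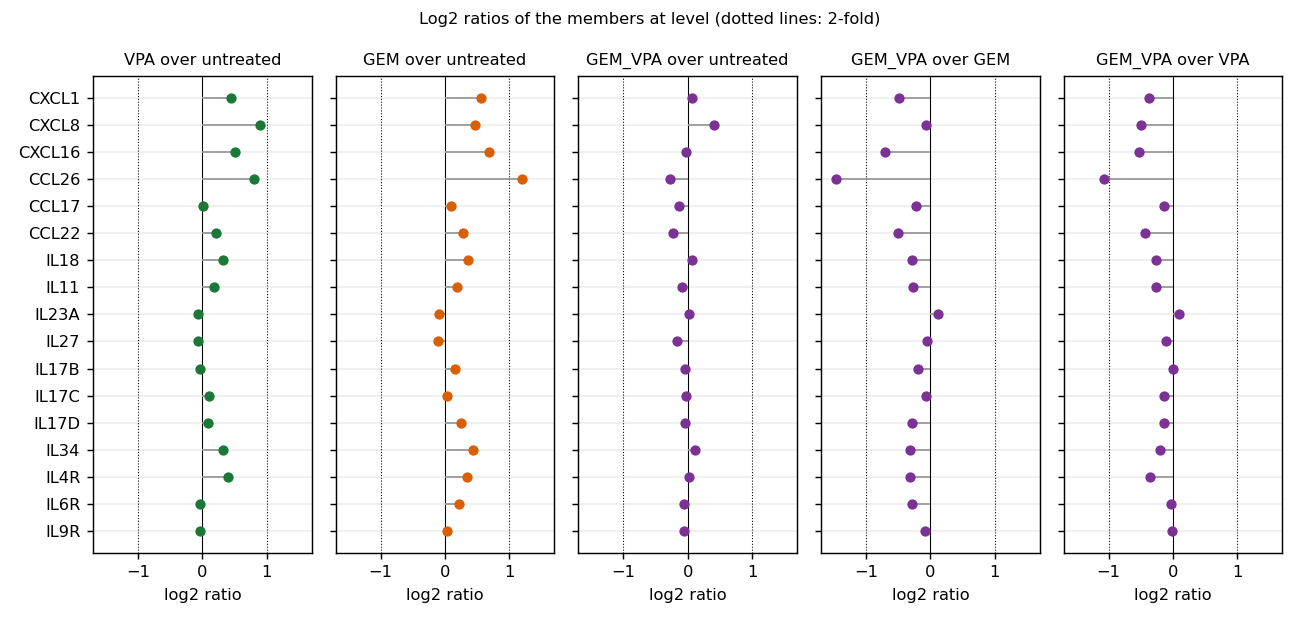
Log2 ratios (x axis) of the 17 members at level (rows) in the 5 comparisons (panels); dots are single values without error and dotted lines mark 2-fold. CCL26 passes a dotted line in GEM over untreated (1.19), GEM_VPA over GEM (-1.46) and GEM_VPA over VPA (-1.08, below level on both arrays), and no other member passes one.

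The 5 comparisons were counted by the authors' limit of 2-fold, where the higher value also had to reach the median of its array. With VPA over untreated, 0 of 16 members at level in that pair differed 2-fold, against 4% of all genes at level. The median log2 ratio was 0.18 over the 17 members at level and -0.04 over all genes at level, and 12 of the 17 (70.6%) were above 0, against 45.0% of all genes. Over the 10 members at level on all 4 arrays the median for VPA was 0.0535, and over all 78 members 0.0760. With GEM over untreated, 1 of 16 members differed 2-fold (CCL26, higher), against 4.49% of genes. The median was 0.24 over the members and -0.04 over all genes, and 15 of 17 were above 0, against 44.9%. With GEM_VPA over untreated, 0 of 13 members differed 2-fold, against 0.148% of genes, with medians of -0.04 and -0.03.

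With GEM_VPA over GEM, 1 of 16 members differed 2-fold (CCL26, lower), against 5.38% of genes. Of the members at level 16 of 17 were below 0, while 52.9% of all genes at level were above 0. The median was -0.28 over the members and 0.03 over all genes at level. With GEM_VPA over VPA, 0 of 15 members differed 2-fold, against 3.16% of genes. Again 16 of 17 members were below 0, while 53.6% of all genes were above 0. The median was -0.20, against 0.03 over all genes. IL23A was the exception in both. With each array centred on its median, IL17B, IL9R and IL6R also rose above 0 in GEM_VPA over VPA (0.05, 0.04 and 0.03). The shares of members past 2-fold were near or under those of all genes. CCL26, CXCL8, CCL22 and IL11 were at level on single-agent arrays only, so these medians and counts are a description of members that the level rule partly chose for being high there. The 61 members below level had medians between -0.09 and 0.05 in the 5 comparisons.

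VPA over untreated and GEM_VPA over GEM share no array, so the difference with VPA was read without and with GEM. For VPA, 12 of 17 members at level were higher with VPA than untreated and lower with GEM_VPA than with GEM, against 33.1% of the 11808 genes at level. IL17B, IL23A, IL27, IL6R and IL9R were the others. The corresponding pairs for GEM, GEM over untreated and GEM_VPA over VPA, gave 15 of 17, against 37.8% of genes, with IL23A and IL27 as the others. Members such as CXCL8 and CCL26 are at level through a single-agent array alone, which favours this order. Over the 10 members at level on all 4 arrays the counts were 6 for VPA, against 32.4% of such genes, and 8 for GEM, against 37.2%. Both readings use all 4 arrays and are therefore not independent of each other. Some of the signs rest on ratios near 0. With each array centred on its median, GEM_VPA over VPA became positive for IL17B (0.05), IL9R (0.04) and IL6R (0.03). GEM over untreated became negative for IL17C and IL9R (both -0.005), and VPA over untreated for CCL17 (-0.04). These members would then leave the counts, which were not recomputed.

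**Figure D3:**
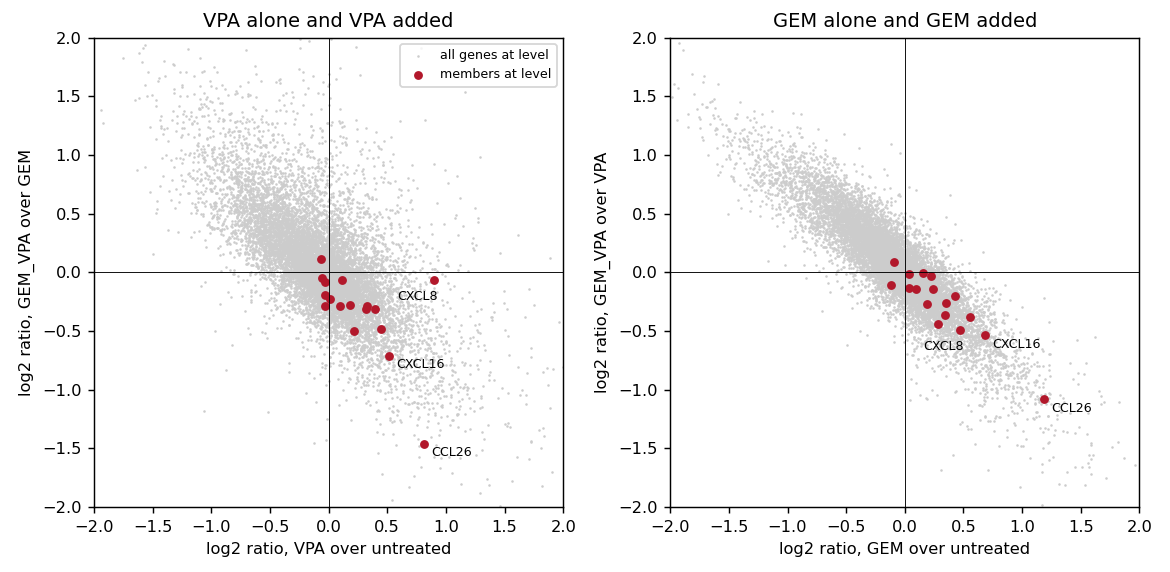
Log2 ratios in comparisons that share no array: VPA over untreated against GEM_VPA over GEM (left) and GEM over untreated against GEM_VPA over VPA (right), for all genes at level (grey) and the 17 members at level (red); axes end at -2 and 2. In the lower right quadrant, higher with the agent alone and lower when it was added, lie 12 of 17 members for VPA and 15 of 17 for GEM.

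The departure from additivity is the log2 ratio of GEM_VPA over VPA less that of GEM over untreated. Its median was -0.46 over the 17 members at level, against 0.07 over all genes at level. It was below 0 in 15 of 17 members and in 5391 of 11808 genes. CCL26, CXCL8, CCL22 and IL11 are at level on single-agent arrays only, which favours values below 0. Over the 10 members at level on all 4 arrays the median was -0.25. The departure was -2.27 for CCL26, -1.22 for CXCL16, -0.96 for CXCL8 and -0.93 for CXCL1. Since GEM_VPA resembled untreated across the arrays, this value carries that resemblance.

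Genes around the members in the same pathways were read from lists of receptors, inhibitors and signal transducers. Of 18 measured chemokine receptors, CXCR3 alone reached an array median (8.06 with GEM) and 0 differed 2-fold in the 5 comparisons. CXCR4 had 7.37 with GEM_VPA, 7.75 with VPA, 7.66 with GEM and 7.15 untreated, and ACKR3 was between 5.68 and 5.89. CXCR6, the receptor of CXCL16, lay between 6.20 and 6.34. Of 35 listed interleukin receptor subunits, which include the member IL23R, 18 were at level. In these, IL31RA was higher with VPA than untreated (1.11), and GEM_VPA over GEM had IL1R1 and LIFR higher and IL20RB, a receptor chain for IL-19, IL-20 and IL-24, lower (-1.45).

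Of 10 inhibitors and processing genes, IL1RN and DPP4, a protease that trims chemokines, were 2-fold higher with VPA than untreated (DPP4 1.46). DPP4 had 9.35 with GEM_VPA, 10.04 with VPA, 9.18 with GEM and 8.58 untreated. Of 14 measured JAK, STAT and SOCS genes, STAT3 and STAT4 were 2-fold higher with VPA than untreated. STAT4 had 8.94 with GEM_VPA, 9.36 with VPA, 9.10 with GEM and 7.87 untreated, so all 3 treated arrays were 2-fold or more above it. Of 18 measured other cytokines, EBI3 and GDF15, a stress cytokine, were 2-fold higher with each agent alone than untreated, and both were 2-fold lower with GEM_VPA than with either. GDF15 had 11.73 with GEM_VPA, 13.38 with VPA, 13.60 with GEM and 12.10 untreated. TGFB2 had 7.77 with GEM_VPA, 7.71 with VPA, 7.22 with GEM and 8.25 untreated, and was 2-fold lower with GEM than untreated (-1.02). TNF lay below level, between 6.72 and 7.18.

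NF-kB is the factor for which the ELR promoters carry a motif. Of 15 measured subunits and feedback genes, all at level, NFKB1 (p105/p50) and NFKBIA (IkB alpha) were 2-fold lower with VPA than untreated and 0 differed 2-fold in the other 4 comparisons. NFKB1 had 9.99 with GEM_VPA, 9.10 with VPA, 9.44 with GEM and 10.41 untreated. NFKBIA had 10.34 with GEM_VPA, 9.84 with VPA, 10.45 with GEM and 10.93 untreated. RELA varied between 10.92 and 10.98. The median log2 ratio of VPA over untreated was -0.17 over the 15 genes, and 4 of them were above 0. These were NFKB2 (0.70), TNFAIP3 (0.49), TNIP1 (0.33) and NFKBIZ (0.05). On the VPA array CXCL8 was thus higher and NFKB1 and NFKBIA lower than untreated, and a relation between them was not tested.

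**Figure D4:**
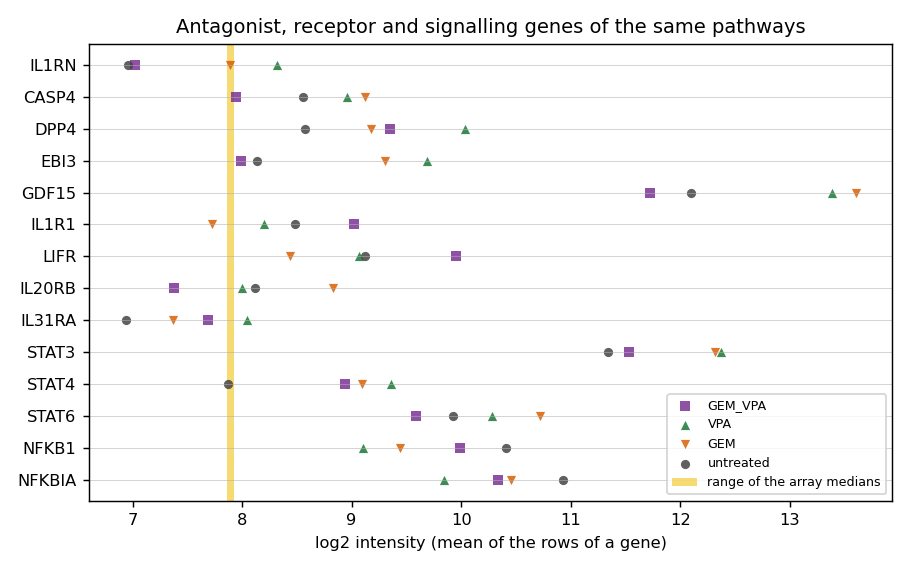
Log2 intensity (x axis) of 14 antagonist, receptor, cytokine and signalling genes (rows) on the 4 arrays (symbols); the yellow band spans the array medians. IL1RN, EBI3, GDF15 and STAT3 lie higher with VPA and GEM than with GEM_VPA and untreated, while IL1R1 and LIFR lie highest with GEM_VPA.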

How the data were processed

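RNA of HuCCT1 cells was measured on 4 arrays, 1 per group. The authors deposited normalized log2 intensities, made in GeneSpring GX 11.5, as the series' design text states. The submitters' processing notes name RMA. RMA equalises intensity distributions and compresses low values. No source used here names a genome build for the array rows; promoters are RefSeq's on GRCh38.p14.

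Rows were named from the platform annotation (19310 with 1 symbol, 1752 with several, 7807 with none), and a gene took the mean of its rows. All 78 members matched RefSeq by Entrez ID. RefSeq promoter windows were matched for 58 members. The windows hold 250 bases before and 50 after the start, and a gene counted when any of its windows held a motif. A planned comparison of proteins was not run, since no protein sequences were used here.

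The members, lists and alternatives were chosen with earlier results of these data known. Named genes were all members at level, the 3 of widest range below level, genes of the other lists that differed 2-fold, and a set taken whatever its values (NFKB1, NFKBIA, TNF, LIF, IL1RN, IL6ST, CXCR4 and ACKR3, with CSF2 not analysed here); near copies were named too. Others, among them IL6, CASP1, IL17RE, IL13RA1, ADAM10 and the epithelial markers, were chosen after their values were seen. The counting rule was tested on simulated data, with changes well past the 2-fold limit in genes far above the array median. Such a test cannot tell how the rule performs on members near the median or with small ratios. No paired or replicated test was possible. Software was Python 3.11.15, numpy 2.4.6, pandas 2.3.3 and matplotlib 3.10.9.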

Additional observations from a re-analysis of the deposited data

Results flagged for a closer look

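Members at level were listed here when the difference made by an agent ran in opposite directions without and with the other agent, each by more than 0.147, the robust SD between the closest arrays. With 1 array per group the difference between the directions was not tested. CCL26, CXCL8, CCL22 and IL11 are at level on single-agent arrays only, which favours their being listed. By sign alone, 33.1% (VPA) and 37.8% (GEM) of all genes at level were higher with the agent alone and lower when it was added. The share of all genes beyond the limit of 0.147 was not counted. The departure from additivity on the log2 scale was -2.27 for CCL26, -1.22 for CXCL16, -0.934 for CXCL1, -0.721 for CCL22, -0.705 for IL4R, -0.636 for IL34, -0.615 for IL18 and -0.459 for IL11, each in opposite directions for both agents. For CXCL8 it was -0.961, with opposite directions beyond this limit for GEM only: GEM_VPA was lower than VPA, and GEM was higher than untreated. The limit was not met by IL11 and IL34 in every processing. With quantile normalization again, IL11 had 0.134 in VPA over untreated and IL34 had -0.144 in GEM_VPA over VPA. With each array centred on its median, IL11 had 0.134 in VPA over untreated as well.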

How the results depend on the processing

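Of 79 recomputed counts and medians, 66 stayed within 1.5 times (counts) or within 0.147 on the log2 scale (medians). Of 255 recomputed log2 ratios of the 17 members at level, 0 moved by more than 0.147, and the largest shift was 0.11. Of these ratios 10 changed sign, the largest being 0.04 in size. Most of the 255 could not have moved that far. Taking the row with the highest mean could alter IL9R only, whose rows were nearly equal. Centring shifts a ratio by the difference between array medians, which lay between 7.87 and 7.92. Only quantile normalization of the columns again could have moved a ratio past the limit. The counts of members above or below 0, and of directions, were not recomputed. With a 1.5-fold limit, 1 member differed with VPA over untreated, 2 with GEM over untreated and 2 with GEM_VPA over GEM. With a 3-fold limit, or with the level filter at the 75th percentile, 0 members differed with GEM over untreated and 0 with GEM_VPA over GEM. Without a level filter, 1 member differed with GEM_VPA over VPA (CCL26). Over all 78 members the median relative to untreated was 0.0760 (VPA) and 0.0764 (GEM), and -0.0989 for GEM_VPA over GEM, and the departure from additivity was -0.17. Over the 10 members at the array median on all 4 arrays, instead of 17, the departure was -0.25 and the median for VPA over untreated 0.0535, against 0.18 over the 17. All these alternatives change the filter or limit, and with it the members counted. The medians of 0.0535 and 0.0760 for VPA over untreated are among the 66 that stayed within the limit. That limit of 0.147 is close in size to the median of 0.18 itself. Single arrays give no spread within a group, and low intensities limit what can be read for the 61 members below level.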

Other observations

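Outside the named rows, 8 rows with several symbols hold genes of the same name pattern, in 4 sets (CCL3 with its copies, CCL4 with its copies, CCL14 with CCL15, and CCL27 with another gene). Of these rows, 3 reached an array median, and the largest difference between arrays in any of them was 0.34. The 3 rows shared by CCL3, CCL3L1 and CCL3L3 had 8.42 with GEM_VPA, 8.69 with VPA, 8.64 with GEM and 8.56 to 8.57 untreated, while the row that names CCL3 alone had 7.34 with GEM_VPA, 7.31 with VPA, 7.31 with GEM and 7.65 untreated.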
